A study of Sus scrofa with 36 samples.

Results

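In the adrenal glands of pigs, 232 array probes gave a signal that differed strongly between 2 parental breeds at both temperatures of a heat experiment. A probe was a member when the mean log2 intensity of the Large White pigs (LW) minus that of the Creole pigs (CR) was at least 1 in size, which is a 2-fold difference, with the same sign in the thermoneutral (TN) and in the heat stress (HS) pigs. Of the 45348 probes in the authors' normalized table, 0.512% were members. Higher values in CR were found for 142 members (0.313% of all probes) and higher values in LW for 90 (0.198%). The members were selected on their LW minus CR values, which are given below as a description, without a test.

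The study used 36 castrated male pigs, moved at 11 weeks of age into a climatic room. There were 12 CR, 12 LW and 12 pigs of the cross Large White×Créole (F1), and 1 array was hybridised per pig. In each breed 6 pigs were slaughtered at 24 °C (TN) and 6 under heat (HS), which the labels give as 30 °C and the growth protocol as 32 °C. The growth protocol gives 5 days of heat and the study's methods 4 or 5, without saying which pigs had which. All pigs were kept in the same climatic room on the same diet, and no group carried a genetic modification. Blocks of littermates were used within each breed, and litter, pen and slaughter day were not given with the arrays. A difference between breeds therefore cannot be told apart from a difference between the few litters that stood for each breed, and p-values measure the spread between these pigs.

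The adrenal gland has a cortex, which makes steroid hormones from cholesterol, and a medulla of chromaffin cells, which store and release adrenaline and noradrenaline. When parental lines differ in the expression of a gene, a cross with additive inheritance lies halfway between them, whereas a dominant high or low state brings the cross level with 1 parent. A probe on an array reads a short stretch of a transcript, so that probes of the same gene may differ where the transcript is spliced, is cut at another end or carries a sequence variant.

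The sequences below are shown because agreement between probes decides how far a breed difference belongs to a whole transcript. Capitals mark the longest run of bases shared with the other probe of the pair, and a probe with no such partner is in lower case. All are 60 bases long, 5′ to 3′, as given on the array. The probes of OAZ3 hold an identical pair and a separate stretch, and all were members.
OAZ3 probe A_72_P437459: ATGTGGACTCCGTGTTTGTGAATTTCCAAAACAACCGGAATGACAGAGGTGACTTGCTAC
OAZ3 probe O3277: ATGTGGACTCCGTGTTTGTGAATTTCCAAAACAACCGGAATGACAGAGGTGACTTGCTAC
OAZ3 probe A_72_P619999: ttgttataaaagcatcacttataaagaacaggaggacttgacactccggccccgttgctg
The first pair of DPM1 probes overlapped and both were members, whereas a stretch farther along the transcript was not.
DPM1 probe A_72_P634594: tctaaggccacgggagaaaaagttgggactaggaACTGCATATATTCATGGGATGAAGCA
DPM1 probe O7965: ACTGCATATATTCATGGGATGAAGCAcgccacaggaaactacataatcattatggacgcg
DPM1 probe A_72_P655584: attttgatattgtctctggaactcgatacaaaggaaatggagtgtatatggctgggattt
For COX2 a member and a probe that was not a member overlapped by 48 bases and differed in 1 of them, A33T, counted from the 5′ end of the member (the member has the first letter).
COX2 probe A_72_P746371: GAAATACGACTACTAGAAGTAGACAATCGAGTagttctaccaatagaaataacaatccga
COX2 probe A_72_P751248: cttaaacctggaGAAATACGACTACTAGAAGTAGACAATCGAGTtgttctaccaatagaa
A pair of overlapping KIT probes, a PDLIM3 probe and the HLA-E probe stand for a gene read alike by all probes, for the gene with most members and for the F1 result described last.
KIT probe A_72_P180731: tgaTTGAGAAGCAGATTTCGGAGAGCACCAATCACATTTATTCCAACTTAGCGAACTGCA
KIT probe O299: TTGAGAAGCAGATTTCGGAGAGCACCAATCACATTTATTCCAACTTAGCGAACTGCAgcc
PDLIM3 probe A_72_P223382: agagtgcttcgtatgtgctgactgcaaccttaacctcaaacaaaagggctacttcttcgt
HLA-E probe O10747: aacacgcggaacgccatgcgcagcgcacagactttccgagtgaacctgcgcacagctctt

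Between 41989 and 45112 probes of the table were well above background on each array, and Pearson's r between arrays ran from 0.982 to 0.996 across probes. Of the members, 175 were well above background on all 36 arrays, and 7 were above it on no array of at least 1 group. Of 28 cortex and steroid synthesis genes with a probe, 27 were well above background on all arrays, and the summed signal of the list spanned 2120000 to 2370000 in CR and 1960000 to 2260000 in LW on the linear scale. Chromaffin markers were above it on all arrays for 21 of 21 genes, and their sum spanned 676000 to 936000 in CR and 642000 to 1020000 in LW. In a whole gland, fewer cells of a type and less RNA per cell cannot be told apart.

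The median size of the LW minus CR difference, averaged over both temperatures, was 1.51 among members higher in CR and 1.39 among those higher in LW, and the largest values were 4.66 and 3.28. A difference of at least 2 at both temperatures was found for 36 members. The values at TN and HS were mostly alike in size, with exceptions such as MYOT, at -3.98 and -1.16. Just inside the threshold lay the probes BF189054 and TC545809, with smaller differences of 1.0016 and 1.0023 in favour of CR, and SLA-3 and TC538738, with 1.0061 and 1.0087 in favour of LW. Just outside lay OTTSUST00000001077 (0.996) and a probe of FABP4 (0.986) on the CR side, and UPK2 and CNTN3 (both 0.997) on the LW side. When any 1 of the 24 parental pigs was left out, 135 members (58.2%) still met the rule. The probes by which MYOT, RLN2, KHDRBS3, XAF1, LPL, NECTIN4, ECHDC1, SLA-3, MCT7, TPSD1, NT5E, COX2, SST, SLC30A8, PLPPR5, PON3, ADAMTS8, ADAMTS19 and SMPD3 are described did not.

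Pigs of the same breed and temperature varied far more at these probes than on the array as a whole. The median standard deviation within groups was 0.71 in CR, 0.68 in F1 and 0.41 in LW, against 0.18, 0.17 and 0.17 over all probes. Among members higher in CR it was 0.74 in CR and 0.38 in LW, and among members higher in LW it was 0.64 in CR and 0.46 in LW. The 12 CR and 12 LW pigs did not overlap at 41 members (17.7%), 20 higher in CR and 21 higher in LW, whereas 0.26% of all probes had no overlap. The rule used the same values, so this share is a description.

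PDLIM3, MYOT and CA3 were among the members higher in CR. PDLIM3, a protein that binds alpha-actinin at the Z-line of muscle (gene on chromosome 15, 46516178 to 46546658 of Sscrofa11.1), had 10 probes and all were members, between -3.29 and -1.41. PDLIM3 at TN ran from 10.06 to 13.36 (median 12.39) in CR, 8.67 to 10.10 (median 9.22) in F1 and 8.59 to 9.76 (median 9.04) in LW. The HS pigs ran from 9.47 to 13.90 (median 13.45) in CR, 9.46 to 12.82 (median 10.95) in F1 and 9.28 to 9.77 (median 9.48) in LW. All but 2 of the CR pigs were above every LW pig by a wide margin, and the remaining 2 CR pigs were at the level of LW or close to it. MYOT, the Z-disc protein myotilin, differed by -3.98 at TN and -1.16 at HS at its brightest member probe. Of its 22 probes 4 were members, all 22 were lower in LW, and the probes that were not members lay between -2.18 and -0.54. The log2 values of MYOT in the TN pigs lay between 5.04 and 11.97 (median 10.61) in CR, 5.12 to 13.58 (median 12.11) in F1 and 4.99 to 9.94 (median 5.19) in LW. In the HS pigs they were 5.10 to 11.11 (median 7.54), 5.22 to 11.84 (median 7.88) and 5.11 to 9.88 (median 5.30) in the same order of breeds. High and low pigs occurred in all breeds, so the groups overlapped. In LW the MYOT probe was well above background on 1 of 6 arrays at TN and 2 of 6 at HS, so that the size of its difference is uncertain. The MYOT probe did not meet the rule with some 1 parental pig left out. CA3, a carbonic anhydrase of muscle and fat, was read by 20 probes, of which 8 were members and all 20 were lower in LW, those that were not members between -1.36 and -0.19. The pair of brightest CA3 probes had the smallest sizes, -0.19 and -0.42. Its brightest member differed by -1.26 at TN and -1.92 at HS. Among genes chosen after their values were seen, PVALB (parvalbumin, a calcium buffer of fast muscle), PRKAG3 (a muscle subunit of the energy sensor AMPK) and PHKG1 (a subunit of phosphorylase kinase) were also higher in CR, by 1.36, 1.40 and 1.46. The other probe of PRKAG3 was at -0.43 and that of PHKG1 at -0.55, and PVALB was well above background on 2 of 6 LW arrays at each temperature. The list of skeletal muscle markers does not hold the genes named above in this paragraph. None of its 20 markers with a probe was a member. The median LW minus CR of their brightest probes was 0.06, close to the median of 0.00 over all probes. Their summed signal spanned 25600 to 39600 in CR, 25800 to 61400 in F1 and 27100 to 37300 in LW.

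NPSR1, CCK and RLN2 were also higher in CR, whereas the receptor KIT, given below, was higher in LW. NPSR1, the receptor of neuropeptide S, differed by -3.19 at TN and -3.12 at HS at its brighter probe. NPSR1 at TN ran from 5.49 to 9.95 (median 9.25) in CR, 5.10 to 9.09 (median 5.74) in F1 and 5.48 to 5.61 (median 5.57) in LW. In HS pigs the values went from 5.26 to 10.02 (median 9.17) in CR, 5.20 to 9.30 (median 5.42) in F1 and 5.21 to 6.03 (median 5.49) in LW. Of the 12 CR pigs 10 were far above every LW pig, and the other 2 were within the LW range. This probe was well above background on 2 of 6 LW arrays at each temperature, so that the size of its difference is uncertain. The dimmer NPSR1 probe was above background on no LW array at HS, where CR was at least 3.55-fold higher. CCK, the peptide hormone cholecystokinin, had 4 probes from the same stretch of the transcript, all members between -2.79 and -2.35. The log2 values of CCK in the TN pigs lay between 9.37 and 11.54 (median 11.23) in CR, 7.88 to 10.37 (median 9.18) in F1 and 7.94 to 9.57 (median 8.17) in LW. In the HS pigs they were 8.65 to 12.42 (median 10.64), 8.18 to 11.16 (median 10.66) and 7.70 to 9.97 (median 8.06) in the same order of breeds. CR pigs were mostly above LW pigs, with some overlap. RLN2, a relaxin hormone, was high in 5 CR pigs and in no F1 or LW pig by the widest gap between pigs, and all 3 of its probes divided the pigs in the same way. Its highest CR pigs reached 11.93 at TN and 11.56 at HS, while the highest LW pig was at 6.90. SST (somatostatin, an inhibitory peptide hormone), ABCC8 (the sulfonylurea receptor) and SLC30A8 (a zinc transporter of secretory granules), chosen after their values were seen, were higher in CR by 1.23, 1.43 and 1.34.

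CRABP1, which binds retinoic acid in the cytosol, differed by -3.68 at TN and -3.42 at HS, and its 3 probes were all members. CRABP1 at TN ran from 8.87 to 13.12 (median 12.93) in CR, 7.42 to 10.01 (median 8.65) in F1 and 7.36 to 8.84 (median 8.16) in LW. Under HS the range was 8.75 to 13.44 (median 11.14) in CR, 7.78 to 10.41 (median 8.78) in F1 and 7.16 to 8.002 (median 7.59) in LW. The highest 5 CR pigs were set apart from all other pigs, and the lowest CR pig (8.75) was just below the highest LW pig (8.84). MGST2 and CES1, which handle foreign compounds, were lower in LW as well. MGST2, a glutathione transferase of membranes, differed by -2.41 at TN and -2.49 at HS. MGST2 at TN ran from 11.90 to 12.86 (median 12.68) in CR, 10.14 to 12.25 (median 11.89) in F1 and 9.62 to 11.79 (median 9.92) in LW. At HS it ran from 12.09 to 12.87 (median 12.69) in CR, 9.75 to 12.52 (median 12.33) in F1 and 9.29 to 11.08 (median 10.09) in LW. All 12 CR pigs were above all 12 LW pigs, and F1 pigs were found at both levels. CES1, a carboxylesterase, had 3 members among 8 probes, 7 of the 8 were lower in LW and the remaining 1 was at 0.10 at TN and -0.10 at HS, and its brightest member differed by -1.63 at TN and -2.44 at HS. The member named CES3 held the same 60 bases as that CES1 probe, so that they are 1 measurement and the carboxylesterase genes cannot be told apart by it. In the list of glutathione transferases and drug metabolism, MGST2 and CES1 were the members among 40 genes with a probe, and the brightest probes of 24 were higher in CR.

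Among adipocyte genes, ADIPOQ, the hormone adiponectin, and FABP4, the fatty acid carrier of fat cells, were higher in CR. All 10 ADIPOQ probes and all 8 FABP4 probes were lower in LW, and 6 and 5 of them were members. ADIPOQ at TN ran from 8.44 to 10.50 (median 10.04) in CR, 8.74 to 10.30 (median 9.08) in F1 and 7.82 to 8.78 (median 8.27) in LW. The HS pigs ran from 9.19 to 10.03 (median 9.67) in CR, 7.87 to 10.13 (median 9.53) in F1 and 7.53 to 8.20 (median 7.91) in LW. CR and LW overlapped little, and the F1 mean was nearer to CR. FABP4 differed by -1.27 at TN and -1.39 at HS. LPL, the lipase that frees fatty acids from circulating lipoproteins, went the opposite way, with 1.11 at TN and 1.57 at HS, and all 7 of its probes were higher in LW. In the list of 15 adipocyte genes with a probe, 12 had a brightest probe higher in CR, with a median LW minus CR of -0.17. PLIN1, which coats lipid droplets and was chosen after its values were seen, was not a member, at -0.90. The summed signal of the list spanned 87200 to 138000 in CR, 76100 to 123000 in F1 and 78400 to 113000 in LW. The sums hold ADIPOQ, FABP4 and LPL themselves, and the part of fat tissue in the differences of these genes was not tested.

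USF1, KHDRBS3 and VMO1 were further named genes higher in CR. USF1, a transcription factor that binds E-boxes, had 4 members among 5 probes and differed by -1.59 at TN and -1.78 at HS with no overlap between the parents. KHDRBS3, an RNA-binding regulator of splicing, had 5 members among 6 probes and differed by -1.86 at TN and -1.13 at HS. VMO1 differed by -2.03 at TN and -1.62 at HS.

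OAZ3 had the largest difference in favour of LW among named genes when averaged over both temperatures, while that of LOC100524282 was larger at HS. OAZ3, an antizyme that inhibits ornithine decarboxylase, differed by 3.06 at TN and 2.37 at HS. The log2 values of OAZ3 in the TN pigs lay between 7.47 and 8.10 (median 7.72) in CR, 7.96 to 10.64 (median 10.06) in F1 and 10.30 to 11.38 (median 10.66) in LW. In the HS pigs they were 7.63 to 8.18 (median 7.81), 7.80 to 10.66 (median 8.21) and 8.32 to 10.98 (median 10.51) in the same order of breeds. All LW pigs were above all CR pigs, and 1 LW pig at HS was close to the CR level. LOC100524282 differed by 2.31 at TN and 3.08 at HS at 1 of its 2 probes, while the other was at 0.10. LOC100524282 at TN ran from 10.33 to 14.56 (median 12.64) in CR, 13.78 to 15.53 (median 14.38) in F1 and 14.50 to 15.38 (median 14.79) in LW. In HS pigs the values went from 8.79 to 14.79 (median 12.06) in CR, 13.83 to 15.48 (median 14.16) in F1 and 14.50 to 15.47 (median 15.32) in LW. Among CR pigs 6 were within reach of LW and 6 were far below, and no F1 or LW pig was low.

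KIT, the receptor tyrosine kinase of stem cell factor and the gene of the dominant white coat locus of pigs (chromosome 8, 41402334 to 41492306), was higher in LW at all 5 probes, between 1.35 and 1.72. KIT at TN ran from 10.07 to 11.02 (median 10.34) in CR, 11.10 to 11.44 (median 11.33) in F1 and 11.85 to 12.48 (median 12.02) in LW. Under HS the range was 10.04 to 10.71 (median 10.48) in CR, 10.69 to 11.52 (median 11.21) in F1 and 11.61 to 12.50 (median 12.21) in LW. The 3 breeds were ordered CR, F1 and LW, with the F1 pigs between the parents at a place of 0.54 at TN and 0.42 at HS, where 0 is the CR mean and 1 the LW mean. MRAP2, an accessory protein of melanocortin receptors, differed by 1.99 at TN and 1.67 at HS. The log2 values of MRAP2 in the TN pigs lay between 8.08 and 11.39 (median 10.88) in CR, 10.67 to 12.40 (median 11.26) in F1 and 11.65 to 12.83 (median 11.96) in LW. In the HS pigs they were 7.76 to 11.50 (median 11.27), 10.70 to 11.97 (median 11.30) and 11.62 to 12.14 (median 11.91) in the same order of breeds. The 4 lowest pigs were all CR, and the other 8 CR pigs were below all LW pigs by a small margin. SYT13, a synaptotagmin of vesicle traffic, differed by 1.73 at TN and 1.37 at HS with no overlap between the parents. Chromaffin markers were shifted the same way, 16 of 21 genes being higher in LW with a median of 0.35, although none was a member, and their part in the SYT13 difference was not tested.

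MT1A, a metallothionein that binds zinc and copper, differed by 2.19 at TN and 2.47 at HS at its brightest member. MT1A at TN ran from 9.16 to 13.35 (median 9.78) in CR, 12.16 to 13.84 (median 12.51) in F1 and 11.72 to 13.76 (median 12.54) in LW. At HS it ran from 8.67 to 12.98 (median 9.95) in CR, 11.74 to 14.001 (median 12.38) in F1 and 11.98 to 13.33 (median 12.97) in LW. F1 pigs were at the LW level, and 4 CR pigs were high as well. The third MT1A probe had the opposite sign (-0.68), and metallothionein genes are near copies of each other, so the source of the signal is uncertain. EFHD1, a calcium-binding protein of mitochondria, differed by 1.88 at TN and 1.67 at HS and DCPS, which degrades mRNA caps, by 1.56 at TN and 1.47 at HS, with no overlap between the parents in either. The other DCPS probe, well above background on all 36 arrays, had the opposite sign (-0.08 at TN and -0.31 at HS). CATSPERB, a subunit of a sperm calcium channel, had 3 members among 3 probes, and at 1 of them LW was at least 2.20-fold higher at TN, since no CR array there was above background. NECTIN4, a cell adhesion protein, was high in 4 LW and 3 F1 pigs and in no CR pig. ECHDC1, an enzyme that removes faulty acyl-CoA products, differed by 1.28 at TN and 1.30 at HS, and this rested on 2 very low CR pigs, at 8.06 and 7.05, the other CR pigs being at 12.42 or above.

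Of immune genes, XAF1, SLA-3 and a probe named HLA-E were members higher in LW. XAF1, an interferon-inducible protein of cell death, differed by 1.70 at TN and 1.32 at HS. In the list of interferon-stimulated genes it was the only member, although 26 of 29 brightest probes were higher in LW, with a median of 0.16. SLA-3, a class I molecule of the pig major histocompatibility complex, differed by 1.01 at TN and 1.36 at HS at its brightest member, and all 8 of its probes were higher in LW at TN and 7 at HS. A probe named after the human gene HLA-E, the sequence of which was shown, differed by 2.13 at TN and 1.47 at HS. Class I genes are close copies of each other and vary between animals, so that the gene read by these probes is uncertain. The mast cell tryptases MCT7 and TPSD1, chosen after their values were seen, were also higher in LW, by 1.37 and 1.22. No gene of the lists for lymphoid cells, myeloid cells, red blood cells, kidney and liver, stroma, immediate-early genes, heat shock proteins, ribosomal proteins, cortex or chromaffin cells was a member.

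Many members divided the pigs into high and low pigs with an empty stretch between. Taking the widest gap between sorted pigs with at least 3 pigs on each side, a gap of at least 1 was found at 63 members (27.2%) against 0.431% of all probes, and of at least 2 at 23 members. This way of counting was chosen after the values were seen, and the gaps are taken over the values that the rule used, so nothing is read from the comparison with all probes. At 27 of the 63 no LW pig was above the gap, at 6 no CR pig was, and only at 2 did it part all CR from all LW pigs. F1 pigs lay on both sides at 40 of the 63. At the member probe of SELENOF, a selenoprotein of the endoplasmic reticulum, all 12 CR, 7 F1 and no LW pigs were above the gap. At PDLIM3 and at NPSR1 there were 10 CR, 3 F1 and no LW pigs above it. At the member probe of CYCS, which encodes cytochrome c of the respiratory chain, all CR and F1 pigs and 7 LW pigs were above. At MRAP2 and at COX2 8 CR pigs and all F1 and LW pigs were above.

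The same division of the pigs was often met by several probes. At PDLIM3, 7 probes parted the same 13 high pigs from the rest. At NT5E, the enzyme that makes adenosine outside cells, 2 probes and the unnamed probes TC525514 and TC587888 parted 3 LW pigs from all other pigs (NT5E was chosen after its values were seen). The unnamed probe TC615974 and COX2, subunit 2 of cytochrome c oxidase encoded by mitochondrial DNA, set apart the same 4 CR pigs. At DPM1, which makes the mannose donor of glycosylation, 9 CR and 2 F1 pigs were high at both members. DPM1 and COX2 were also chosen after their values were seen.

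Probe agreement differed widely between genes. The 142 named members belonged to 72 genes, 44 higher in CR and 28 higher in LW, and 53 genes had several probes in the table. By the mean over both temperatures, with no minimum size, all probes had the same sign in 44 of the 53 genes, all probes were members in 15, and only 1 probe was a member in 26. Among the 124 probes of these genes that were not members, 100 had the sign of the member. Probes that share a run of at least 15 bases were counted as 1 site. Of 48 genes with several sites, 11 had a member at every site. PDLIM3 (8 sites), KIT (3 sites), OAZ3, CRABP1, MRAP2, NPSR1, RLN2 and CATSPERB (2 sites each) were among these. CCK and NECTIN4 had 1 site each, so that their several probes do not read separate stretches.

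Other genes had a large difference at a single stretch. SELENOF differed by -4.50 at TN and -4.13 at HS at 1 probe, and its other 5 probes were between -0.08 and 0.15. SELENOF at TN ran from 11.10 to 12.48 (median 11.89) in CR, 8.07 to 11.78 (median 9.75) in F1 and 6.67 to 8.48 (median 7.22) in LW. The HS pigs ran from 11.23 to 12.51 (median 11.76) in CR, 6.40 to 11.66 (median 11.46) in F1 and 6.76 to 8.21 (median 8.04) in LW. All CR pigs were far above all LW pigs, and F1 pigs were found at both levels. The SELENOF member shared runs of 20 and 21 bases with 2 of the other probes. CYCS differed by -2.67 at TN and -2.83 at HS at 1 probe, its other 13 probes were between -0.33 and 0.39, and an overlapping probe with 31 shared bases was at 0.33. Cytochrome c has processed copies in mammalian genomes, so that the transcript read by this probe is uncertain. CYCS at TN ran from 12.40 to 13.30 (median 13.02) in CR, 12.43 to 13.54 (median 13.00) in F1 and 6.76 to 12.61 (median 11.49) in LW. In HS pigs the values went from 12.18 to 13.26 (median 12.80) in CR, 11.38 to 12.92 (median 12.30) in F1 and 6.76 to 12.44 (median 9.89) in LW. CR and F1 pigs were all high, and LW pigs were high or low. SOD2, the superoxide dismutase of mitochondria, differed by 1.39 at TN and 1.97 at HS at 1 probe, and its other 8 were between -0.22 and 0.26. SOD2 at TN ran from 8.17 to 11.13 (median 9.60) in CR, 8.87 to 11.34 (median 9.57) in F1 and 8.21 to 11.79 (median 11.62) in LW. Under HS the range was 7.79 to 11.27 (median 9.38) in CR, 7.89 to 10.79 (median 9.21) in F1 and 11.02 to 11.82 (median 11.19) in LW. All LW pigs but 1 were high, and CR and F1 pigs were spread over the whole range. The overlapping DPM1 members shown above differed by 1.63 and 1.41 in favour of CR, and its other probes were between -0.12 and -0.09. The COX2 member shown above differed by 1.36 in favour of LW, and the probe that overlaps it, with A33T, was at 0.09. The transcripts of the breeds were not sequenced here.

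The mean of F1 lay between the parental means at most members. At TN the median place of F1 was 0.63 (quartiles 0.40 and 0.88), and 195 of 232 members were between the parents. At HS the median was 0.45 (quartiles 0.25 and 0.73), and 200 were between. Places from 0.25 to 0.75 held 126 members at TN and 119 at HS, places from 0 to 0.25 held 14 and 43, places from 0.75 to 1 held 55 and 38, places beyond LW 27 and 16, and places beyond CR 10 and 16. F1 was between the parents at both temperatures at 177 members, beyond LW at both at 9 and beyond CR at both at 4. Members share pigs and often a gene, so these counts are not independent.

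The place of F1 was lower at HS than at TN, that is, on the CR side of its TN place or beyond CR, at 171 of 232 members, with a median change in place of -0.16. Among members higher in CR the median place was 0.59 at TN and 0.38 at HS, and among members higher in LW 0.71 and 0.59. CCK had a place of 0.70 at TN and 0.19 at HS, PDLIM3 of 0.93 at TN and 0.53 at HS, OAZ3 of 0.65 at TN and 0.36 at HS and NECTIN4 of 1.04 at TN and 0.09 at HS. The TN and HS pigs of each breed are different animals, and with high and low pigs in F1 the place follows how many of the 6 were high. At PDLIM3 all 3 high F1 pigs were HS pigs. The change of F1 minus mid-parent between temperatures was tested with limma and passed an adjusted p under 0.05 at 0 members and at 0.0% of all probes. At an unadjusted p under 0.05 there were 16 members (6.9%, against 5.61% of all probes), and the lowest adjusted p of a member was 0.883. Without the arrays of slide 4, 1 member was called.

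F1 minus the mid-parent was tested with limma over all 45348 probes. No F1 pig entered the rule, but the mid-parent is made of the parental values that chose the members, and CR and LW differed in spread there, so the test is not free of the rule and the shares of members called are a description. Over both temperatures 5 of 232 members (2.16%) had an adjusted p under 0.05, 3 with F1 above and 2 with F1 below the mean of the parents, against 0.397% of all probes. The same test called 0 members at TN (0.0265% of all probes) and 2 at HS (0.0463% of all probes). At an unadjusted p under 0.05 there were 56 members at TN (24.1%, against 7.78% of all probes) and 43 at HS (18.5%, against 9.14% of all probes). Spread and size of difference were both larger at members than at other probes, and their part in these shares was not tested. Leaving out the arrays of slide 2, 3 or 4 gave 2, 1 and 3 members over both temperatures, of which 2, 1 and 2 were among the 5, and leaving out slide 5 gave 7, of which 2 were among the 5.

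TC592761, a probe without a gene name, had the largest difference in favour of LW of all members. TC592761 at TN ran from 5.62 to 6.44 (median 5.95) in CR, 7.77 to 9.002 (median 8.55) in F1 and 8.95 to 9.39 (median 9.25) in LW. At HS it ran from 5.71 to 6.48 (median 5.94) in CR, 8.03 to 9.74 (median 8.93) in F1 and 8.90 to 9.75 (median 9.27) in LW. All CR pigs were below all F1 pigs, and the F1 pigs ran from below LW into the LW range. F1 was above the mid-parent by 1.11 ± 0.13 (SE) over both temperatures, with adjusted p = 4.025e-05 by limma. It was the probe called under all 14 alternatives, with values from 0.92 to 1.58. All 14 set F1 against the mean of the parents' log2 values. The mean of their linear values lies above it, so F1 minus that mean is lower, and it was not tested. EFHD1 was 0.92 ± 0.18 above the mid-parent (limma, adjusted p = 0.0161). EFHD1 at TN ran from 6.57 to 8.62 (median 7.51) in CR, 9.36 to 9.76 (median 9.65) in F1 and 9.19 to 10.31 (median 9.35) in LW. The HS pigs ran from 6.96 to 8.94 (median 7.80) in CR, 8.84 to 9.89 (median 9.55) in F1 and 8.98 to 10.33 (median 9.49) in LW. All F1 pigs but 1 were above all CR pigs and within the LW range, at a place of 1.05 at TN and 0.98 at HS, and 11 of 14 alternatives kept the call.

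TC519730 was 0.54 ± 0.13 above the mid-parent (limma, adjusted p = 0.0425), with F1 at the CR level at a place of 0.10 at TN and -0.13 at HS, and was called under 9 of 14 alternatives. TC519730 at TN ran from 6.95 to 7.69 (median 7.16) in CR, 6.85 to 7.82 (median 7.02) in F1 and 5.86 to 7.02 (median 6.14) in LW. In HS pigs the values went from 6.91 to 7.85 (median 7.28) in CR, 7.21 to 8.0 (median 7.28) in F1 and 5.96 to 7.08 (median 6.09) in LW. F1 pigs were within the CR range or just outside it, and 2 LW pigs reached the lower CR pigs. LOC100515155 had F1 beyond LW, at a place of 1.43 at TN and 1.47 at HS, with F1 minus mid-parent of -1.14 ± 0.24 (limma, adjusted p = 0.0216), called under 11 of 14 alternatives. The log2 values of LOC100515155 in the TN pigs lay between 14.87 and 17.16 (median 16.26) in CR, 13.68 to 15.43 (median 14.26) in F1 and 14.23 to 15.60 (median 14.80) in LW. In the HS pigs they were 14.84 to 16.91 (median 15.96), 13.74 to 14.69 (median 14.29) and 13.46 to 15.99 (median 14.78) in the same order of breeds. F1 pigs overlapped LW and were below most CR pigs.

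The probe named HLA-E had an F1 mean below both parents at HS. HLA-E at TN ran from 7.92 to 10.09 (median 8.33) in CR, 5.79 to 10.35 (median 10.18) in F1 and 9.64 to 11.34 (median 11.05) in LW. Under HS the range was 8.18 to 10.38 (median 9.03) in CR, 5.43 to 10.03 (median 5.96) in F1 and 9.71 to 11.29 (median 10.85) in LW. Of the HS F1 pigs 4 were below every parental pig, 1 was near the lowest CR pigs and 1 was high, and at TN 1 F1 pig was low. F1 minus mid-parent was -1.75 ± 0.40 over both temperatures (limma, adjusted p = 0.0426) and -3.12 at HS (limma, adjusted p = 0.0179), and -0.38 at TN (limma, adjusted p = 0.948). The change between temperatures had an adjusted p of 0.883 by limma. The call over both temperatures held under 6 of 13 alternatives, with adjusted p from 0.038 to 0.197. The call at HS held under 8 of 12, and it was lost with slide as a fixed block (-3.01, adjusted p = 0.0516 by limma) and without slide 1, 3 or 4, with adjusted p up to 0.188. Within each of slides 2 to 5, which held all 6 groups, F1 minus mid-parent had the same sign as over all slides for each of the 5 called probes. The probes were called on these same arrays, and each of these slides held 1 or 2 pigs per group, so the signs are a description. Slide 1 held no CR pig at TN and gave no value.

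No member passed the threshold for a difference between HS and TN. The limma test of HS minus TN with breed in the model called 0 of 232 members, against 0.911% of all probes. At an unadjusted p under 0.05 there were 23 members (9.91%, against 13.5% of all probes). The median size of the HS minus TN difference was 0.20 over members and 0.05 over all probes, and the spread between pigs was larger at members too. The lack of calls therefore does not show that members were unchanged by heat. SYT13 had the lowest adjusted p, 0.0806, with a difference of -0.51 ± 0.15 (SE), and a PDLIM3 probe followed with 0.53 ± 0.17 and adjusted p = 0.106 by limma. Without the arrays of slide 5, or without the HS pig 6 of CR, 2 members were called.

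The 90 members without a gene name were set beside the named member genes. Over the 36 pigs, which share breed and arrays, Pearson's r between an unnamed member and its most alike named gene had a median of 0.76, and 19 of 90 reached 0.9. Each r is the highest over the named genes, and both sides were chosen for a breed difference, which alone raises r over these pigs. TC559475 moved with S100A14 (r = 0.998), TC576038 with SYT13 (r = 0.995), TC564980 with OAZ3 (r = 0.993) and TC555084 with MGST2 (r = 0.992). AK230483, with the largest difference of all members (-4.65 at TN and -4.68 at HS), was most alike SELENOF at r = 0.63. The 69 genes with a RefSeq position lay on 17 chromosomes, 11 of them on chromosome 4 and 10 on chromosome 1. USF1, higher in CR, and NECTIN4, higher in LW, were 20775 bases apart on chromosome 4. GUSB (beta-glucuronidase, higher in LW) and PHKG1 (higher in CR) were 135522 bases apart on chromosome 3. CES1 and SMPD3 (858852 bases, chromosome 6) and ADIPOQ and SST (691323 bases, chromosome 13) were the other pairs within 1 Mb, all higher in CR. GUSB, SMPD3 and S100A14 were chosen after their values were seen.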

How the data were processed

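RNA of 36 adrenal glands was labelled with Cy3 and hybridised to 1-colour arrays, 1 per pig. The authors extracted spot intensity with Agilent Feature Extraction 10.10.1.1, and the deposited scanner files hold it before any normalization. Main results rest on the table of 45348 probes that the authors deposited, in which the median spot intensity was quantile normalized and taken to log2 (0 columns of other samples). They are the probes that the authors kept as expressed, of 60305 on the array; the cutoff is not given in the sources used here.

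Members were found by the rule given at the start of the report. The members, gene lists and tests were chosen with earlier results of these data known. Scanner flags gave the arrays on which a probe was well above background. Where a probe was not above it on any array of a group, the bright mean was set against the lowest signal of probes above background. Probes were named from the deposited annotation and RefSeq accessions of Sscrofa11.1, and 90 members stayed unnamed. Named in the text were the 12 named genes with the largest difference in each direction, genes with at least 3 member probes, members called for F1 minus mid-parent or heat, member genes of 15 gene lists and the probes next to the threshold. A gene is described by its brightest member probe.

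Linear models were fitted in R 4.3.3 with limma 3.58.1 (eBayes after lmFit on 6 group means, or on breed and temperature for heat), with Benjamini-Hochberg adjustment over all probes and a threshold of 0.05, and were tested on simulated data. Missing values in the table numbered 93. Alternatives were other intensities and normalizations, filters, slide as a block, slides left out and 1 pig left out. The number of arrays limits the precision.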

Additional observations from a re-analysis of the deposited data

Results flagged for a closer look

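In groups of 6 pigs, a pig was set apart when its gap to the nearest other pig took a larger share of the range of its group than Dixon's critical value for 6 values at the 95% level. Of 215 groups examined at 36 probes described in the text, 26 held such a pig, where chance alone gives about 1 in 20 groups, or 10.8. The probes share pigs, and many divide them into high and low pigs, so that the 26 are not independent.

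Low CR pigs were found for PDLIM3 at TN (10.06, the others from 12.24) and at HS (9.466, the others from 13.08), for NPSR1 at TN (5.492, the others from 8.653) and at HS (5.264, the others from 8.822), for MYOT at TN (5.041), for MGST2 at TN (11.9) and for ECHDC1 at TN (8.062, the others from 12.42) and at HS (7.052, the others from 12.47). High CR pigs were found at HS for SLA-3 (14.87) and TC592761 (6.482).

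In LW at TN, 1 pig was high for both MYOT (9.944) and MGST2 (11.79), and another was low for SOD2 (8.205) and high for TC519730 (7.023). In LW at HS, single pigs were low for OAZ3 (8.315) and high for CCK (9.966) and TC519730 (7.084).

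In F1 at TN, 1 pig was high for NPSR1 (9.091) and USF1 (10.1) and low for HLA-E (5.792), and another was high for SYT13 (11.13). In F1 at HS, 1 pig was low for CCK (8.178), CES1 (6.574), CES3 (6.261, the same probe sequence as CES1) and SLA-3 (14.1), and another was high for RLN2 (8.766).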

How the results depend on the processing

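The rule gave 232 members in the authors' table and 232 in values rebuilt from the scanner files, of which 230 were shared. It gave 177 after normexp background correction and 459 with processed signals scaled to the 75th percentile, and 417 and 70 members at thresholds of 0.8 and 1.5. Leaving out each slide in turn gave 200 to 313 members, and leaving out the HS pig 6 of CR gave 253. These last alternatives were chosen after seeing the data.

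For F1 minus mid-parent over both temperatures 5 members were called, and 3 of these 5 on scanner values with no filter. Without slides 1 to 5 in turn 6, 2, 1, 3 and 7 members were called, of which 4, 2, 1, 2 and 2 were among the 5. At TN, 1 member was called with the 75th percentile scaling and 1 without slide 4, against 0. At HS, 1 was called in place of 2 with only probes above background on all arrays, with slide as a block, and without slides 1, 3 or 4, and HLA-E was the one not called (with the filter it was not tested). Without slide 5, 3 members were called at HS, of which 2 were those of the main result. For the change between temperatures 1 was called without slide 4, and for heat 2 without slide 5 and 2 without the HS pig 6 of CR, against 0. The cause was not tested. Against the mean of the parents on the linear scale, the median F1 difference over members was -0.157 at TN and -0.0338 at HS, instead of 0.095 and 0.165 on the log2 scale, because the mean of linear values lies above that of log2 values. Of 99 recomputed LW minus CR values of 33 named genes, none changed sign and 2 moved by more than the spread between pigs, both with the 75th percentile scaling (CATSPERB from 1.499 to 2.53 and NPSR1 from -3.15 to -4.51). No paired analysis was possible because the labels give groups no shared replicate numbers (pigs are numbered here in accession order), and slide served as the block. Signals near background limit the size of differences at dim probes, and the few litters per breed limit what 12 pigs can stand for.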

Other observations

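Some further members, chosen after their values were seen, placed F1 outside the parents at 1 or both temperatures. PLPPR5, a membrane protein of the lipid phosphate phosphatase-related family, was higher in LW than in CR by 1.48 at TN and 1.02 at HS, and the place of F1 was 2.24 at TN and 0.68 at HS. PON3, a lactonase of the paraoxonase family, was higher in CR, and the place of F1 was 0.66 at TN and -1.05 at HS. COX2 had F1 beyond LW at both temperatures (1.79 and 1.57). ADAMTS8 and ADAMTS19, secreted metalloproteases, were higher in CR, and F1 was at or beyond LW at both temperatures (1.02 and 1.05, and 1.15 and 1.10). The 2 named members with a position on the X chromosome were ARSE, an arylsulfatase, higher in CR by 1.61, and PNPLA4, a lipase, higher in LW by 1.37. For ARSE the place of F1 was 0.84 at TN and 0.60 at HS, between the parents. For PNPLA4 the place of F1 was 1.18 at TN and 0.35 at HS. For F1 minus mid-parent over both temperatures the adjusted p by limma was 0.0592 for COX2 and 0.106 for PLPPR5, and at TN that of PLPPR5 was 0.076, with a difference of 2.58. None of these 7 genes had an adjusted p under 0.05 over both temperatures, at TN or at HS.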
